A study of Mus musculus with 37 samples.

Results

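Mice that had a cortical impact but did not become epileptic carry a struck and an unstruck hemisphere in the same animal. The comparison described here was made in the 8 PTE- mice for which both hippocampi were sequenced, and it set the astrocytes of the ipsilateral (impact) side against those of the contralateral side, paired by mouse. These mice gave 16 of the 37 libraries of the series, and 8 of its 20 mice. They are named a8_9, a8_11, a8_14, a9_12, a9_13, a9_14, a9_15 and a9_16.

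The series measured RNA of astrocytes bead-sorted with the ACSA-2 antibody, which binds the protein of Atp1b2, from the hippocampi of adult male wild-type mice (strain given as CD31 in the labels and as CD1 in the methods). The mice had a severe controlled cortical impact over the right parietal cortex and were followed by continuous EEG and video. PTE- mice were injured and did not reach the definition of epilepsy, PTE+ mice did, and sham mice had the craniectomy and electrodes without the impact. All were collected 4 months after surgery or injury, and all carried recording electrodes. The comparison groups are the 5 sham mice and the 4 PTE+ mice that have both sides, each mouse again being its own control. Per the study this impact removes much of the ipsilateral hippocampus, so the tissue left for sorting can differ between the sides. The study also reports fewer Prox1-negative neurons in the contralateral hilus of PTE- than of sham mice. The contralateral side is thus not an unaltered reference, and the side difference need not hold the whole effect of the injury. In sorted bulk RNA fewer cells of a type cannot be told apart from less RNA per cell.

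Astrocytes take up glutamate and potassium at synapses, supply neurons with glutamine and lipids, and are coupled to each other by gap junctions. After injury they become reactive: intermediate filaments (Gfap, Vim) and complement genes typically go up, and homeostatic genes can go down. The comparison of sides asks how far such changes are present 4 months after an injury that led to no epilepsy.

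Depth was similar on both sides. The contralateral libraries held 32526127 to 55333329 counts and the ipsilateral ones 36925501 to 51524538, with the ipsilateral total the higher in 4 of 8 mice. The number of genes detected was less even, from 11855 to 15315 contralaterally and from 9020 to 15537 ipsilaterally. The ipsilateral library of a8_11 stood lowest, with 9020 genes against 15285 on its contralateral side, and the ipsilateral library of a8_14 came next with 11271. Of 6953 genes with a median above 1000 counts over all libraries of the series, 2234 had at most 3 counts in the a8_11 library and 845 in the a8_14 library, while the contralateral libraries lacked up to 503 (a9_14). The median within-mouse difference over all genes tested was -2.11 on the log2(CPM + 1) scale in a8_11 and lay between -0.04 and 0.30 in the other 7 mice. The share of genes that differed more than 2-fold between the sides of a mouse ran from 20.8% in a9_13 to 76.5% in a8_11. Results below are therefore given with all 8 mice and, where it matters, without a8_11 and a8_14.

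The sorted cells carried astrocyte transcripts on both sides. All 20 astrocyte markers were above 3 counts in all 16 libraries, and their summed level ran from 93590 to 122863 TPM contralaterally and from 68199 (a8_11) to 111730 TPM ipsilaterally, higher on the ipsilateral side in 3 of 8 mice. Atp1b2, the gene of the sorting antigen, was at 320 to 932 CPM contralaterally (median 644) and 300 to 1024 CPM ipsilaterally (median 508), and the sides overlapped.

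No gene passed the test over the whole transcriptome in edgeR. In the paired edgeR fit 13171 genes were tested, 0 had a Benjamini-Hochberg adjusted p under 0.05, and the smallest adjusted p was 0.999958. At an unadjusted p under 0.05 there were 126 genes, 0.957% of those tested, below the 5% that evenly spread p-values would give. The typical gene varied widely between mice, with a common biological coefficient of variation of 1.36. DESeq2 on the same counts and design called 130 genes at an adjusted p under 0.05, 96 higher and 34 lower ipsilaterally, of which 122 had at most 3 counts in at least 1 of the 16 libraries. Limma with voom weights and limma on log2(TPM + 1) called 0 genes at that level, and 582 and 555 at an unadjusted p under 0.05.

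By the criteria of the study (unadjusted p under 0.05, at least 1.2-fold, mean TPM above 5 on at least 1 side) 112 genes were called, 0.85% of the genes tested. Of these, 62 were higher ipsilaterally (0.471%) and 50 lower (0.38%). The 62 higher genes had a median of 32.1 TPM and a median log2 fold change of 3.20, and 31 of them had a mean of at least 50 TPM on 1 side. The 50 lower genes had a median of 385 TPM and a median log2 fold change of -0.67. Of the higher genes 33 and of the lower genes 45 were above 3 counts in all 16 libraries, against 37.6% of all genes tested. The other 29 higher genes had at most 3 counts in at least 1 contralateral library. Among the 33 higher genes that were above 3 counts in all 16 libraries the median log2 fold change was 1.09. Atp9a (0.88 on the log2 scale) lay just inside the p threshold and Ankrd17 (-1.86) just outside it. Leaving out a8_11 and a8_14 gave 207 genes, 125 higher and 82 lower, of which 46 were among the 112. The median log2 fold change over all genes tested was 0.20 in that fit and -0.09 with all 8 mice.

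**Figure D1:**
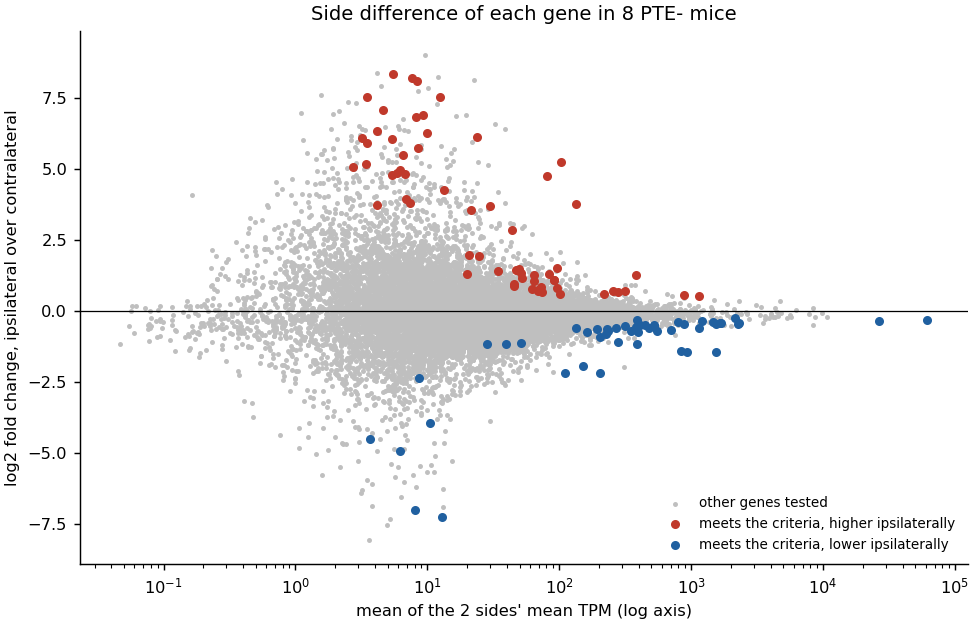
Each point is 1 of the 13171 genes tested, with the mean TPM of both sides on a log x axis and the log2 fold change of the paired edgeR fit on the y axis. The 62 genes that met the criteria with higher ipsilateral levels (red) have a median of 32.1 TPM, and 31 of them have a log2 fold change of at least 3. The 50 lower ones (blue) lie mostly above 100 TPM with small fold changes.

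Direction across mice gives a second view that needs no model of the counts. All 8 mice were higher ipsilaterally for 15 genes (0.114% of those tested) and lower for 81 (0.615%). Most genes were lower ipsilaterally in a8_11, which bears on both counts. Signs drawn at random put all 8 mice in the same direction with a probability of 0.0078. That is near the share seen in both directions together, so agreement of 8 mice alone sets no gene apart. Of the genes that met the criteria, 2 were higher and 15 lower in 8 of 8 mice, and 37 and 40 in at least 7. The exact sign-flip permutation test over 8 mice, two-sided, has a smallest possible p of 0.00781, and it is given below for genes that were named because they ranked high in these same mice.

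Vim, which encodes the intermediate filament vimentin of reactive astrocytes, was among the genes higher on the injured side. Its level ran from 28.7 to 407 CPM contralaterally (median 239) and from 236 to 2585 CPM ipsilaterally (median 454). It was higher ipsilaterally in 7 of 8 mice, with a8_9 the exception at -0.34 on the log2 scale, and the ranges of the sides overlapped. The paired log2 fold change was 1.28 ± 0.43 (SE, n = 8 mice), or 2.42-fold, with an exact sign-flip p of 0.0234 and an edgeR adjusted p of 0.999958. Without a8_11 and a8_14 it was 0.98 ± 0.43 and still met the criteria.

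C4b, a complement component made by reactive astrocytes, showed the same order. It was at 48.3 to 355 CPM contralaterally (median 170) and at 130 to 657 CPM ipsilaterally (median 353), higher in 7 of 8 mice with a8_14 the exception. Its log2 fold change was 1.10 ± 0.34 (SE, n = 8 mice), the exact sign-flip p 0.0156, and without a8_11 and a8_14 the value was 1.42 ± 0.33. Serping1, the inhibitor of the first complement component, was at 18.5 to 79.7 CPM contralaterally (median 58.1) and 25.3 to 332 CPM ipsilaterally (median 95.3). It was higher in 6 of 8 mice, by 1.09 ± 0.44 on the log2 scale (SE, n = 8 mice), with an exact sign-flip p of 0.0312. Its 2 exceptions, a8_9 and a8_14, differed by -0.29 and -0.02.

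Gfap, the other intermediate filament of reactive astrocytes, split the mice evenly. It was at 329 to 2141 CPM contralaterally (median 823) and 542 to 3949 CPM ipsilaterally (median 1086). In a9_13, a9_14, a9_15 and a9_16 it was higher ipsilaterally by 0.88 to 1.88 on the log2 scale, and in a8_9, a8_11, a8_14 and a9_12 it differed by -0.55 to -0.29. The log2 fold change over all 8 was 0.60 ± 0.35 (SE) with an exact sign-flip p of 0.172, and the gene did not meet the criteria. It met them without a8_11 and a8_14, at 0.95 ± 0.39.

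**Figure D2:**
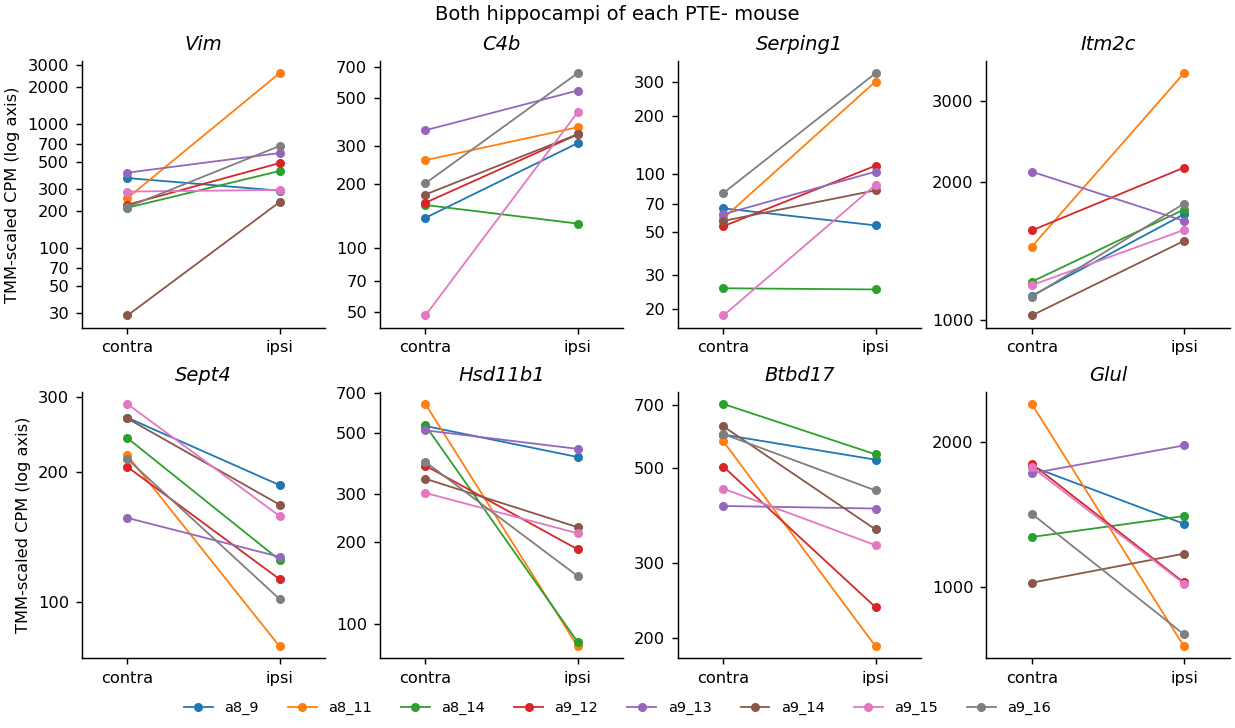
Lines join the contralateral and ipsilateral TMM-scaled CPM (log y axis) of each of the 8 PTE- mice, 1 colour per mouse, for 4 genes with higher and 4 with lower ipsilateral means. Vim, C4b and Itm2c go up in 7 of 8 mice, Sept4, Hsd11b1 and Btbd17 go down in 8 of 8, and Glul goes down in 5.

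The wider reactive programmes held 0 to 2 calls per list with all 8 mice. Of all genes tested 0.85% met the criteria and 55.1% had a log2 fold change below 0. Of 13 pan-reactive genes 11 were tested, 10 with a log2 fold change above 0 and a median of 0.81, against -0.09 over all genes tested, and 1 (Vim) met the criteria. Cxcl10, Cd44, Steap4 and Osmr were at 3 counts or fewer in at least 1 library on each side, and Lcn2 and Timp1 were above 3 counts in too few libraries to be tested. Serpina3n, an acute-phase protease inhibitor, was at 0 to 203 CPM contralaterally (median 75.7) and 0.0753 to 460 CPM ipsilaterally (median 136), a log2 fold change of 0.97 ± 1.502 (SE, n = 8 mice). The A2 list had a median of 1.01 over 7 tested genes with 0 calls. Of these 7, Ptx3, Sphk1, Emp1 and Cd14 were above 3 counts in 4 to 6 of 8 contralateral and 5 to 6 of 8 ipsilateral libraries. The A1 list had a median of -0.18 over 12 tested genes with 1 call (Serping1). Without a8_11 and a8_14 the A1 median was 0.21, against 0.20 over all genes tested in that fit, with Serping1 still the 1 call. The A2 median was then 3.38 with 1 call (Sphk1). The complement list of 14 genes had 12 tested, 10 of them above 0, a median of 1.03 and 2 calls (C4b and Serping1), and C3 was higher in 7 of 8 mice by 2.30 ± 1.57 (SE), which did not meet the criteria. C1qa, C1qb and C1qc of this list are also among the microglial markers described below. C1ra and C1s1 were above 3 counts in 4 and 3 of 8 contralateral libraries. In sham mice the medians of the pan-reactive, A2 and complement lists were -0.11, 0.14 and 0.15. Of 7 intermediate filament and linker genes, Vim met the criteria, Plec was at 0.85 ± 0.41 (SE) and Nes at 0.05 ± 0.80, and the summed TPM of the list was higher ipsilaterally in 7 of 8 mice.

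The lists of interferon-stimulated and class I antigen presentation genes held 0 calls. The 16 interferon-stimulated genes had a median log2 fold change of -0.26 with 12 below 0, and the 9 tested class I genes a median of -0.27 with 7 below 0. Of all genes tested 55.1% were below 0. Without a8_11 and a8_14 the medians were 0.30 and -0.01, against 0.20 over all genes tested in that fit, again with 0 calls. The interferon list thus turned its sign, as did the median over all genes tested. Outside these lists, and named after their values were seen, the interferon gamma receptor gene Ifngr1 (1.05 ± 0.44, higher in 7 of 8 mice) and the kinase gene Jak1 (0.70 ± 0.28, higher in 6) met the criteria. Beta-2 microglobulin (B2m) was at 486 TPM contralaterally and 420 ipsilaterally, -0.44 ± 0.33 (SE, n = 8 mice). Metallothioneins and antioxidant genes had a median of 0.06 over 9 genes with 0 calls.

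Of 4 tested genes of class II antigen presentation, chosen after their values were seen, H2-Ab1 and Cd74 met the criteria and H2-Aa and H2-Eb1 did not. Without a8_11 and a8_14 H2-Aa also met them, at 4.51 ± 1.49 (SE), and H2-Eb1 did not. H2-Ab1, a chain of the class II molecule, was at 0 to 18.3 CPM contralaterally (median 2.19) and 0 to 729 CPM ipsilaterally (median 28.6). It was higher ipsilaterally in 7 of 8 mice, in a9_14 by 4 counts against 0, and at 0 on both sides of a9_15. It was above 3 counts in 4 of 8 contralateral and 7 of 8 ipsilateral libraries. Cd74, the invariant chain, was at 0 to 37.0 CPM contralaterally (median 3.81) and 0 to 975 CPM ipsilaterally (median 36.1), higher in 5 mice and at 0 on both sides in 3. The highest ipsilateral value of both genes was in a9_16, and the next highest in a8_11. In sham mice H2-Ab1 and Cd74 were also higher ipsilaterally in 4 of 5 mice, with log2 fold changes of 5.95 ± 3.45 and 2.51 ± 2.61 (SE). The difference between the groups for H2-Ab1 had an exact permutation p of 0.441. H2-Aa was higher in 4 of 8 PTE- mice and H2-Eb1 in 5, and in a8_11 H2-Aa was at 22.7 CPM contralaterally and 0.1004 CPM ipsilaterally.

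The other genes with the smallest p among those higher on the injured side were partly abundant. Itm2c, a membrane protein of the BRICHOS family, was abundant and moved little, from 1021 to 2103 CPM contralaterally (median 1199) to 1485 to 3451 CPM ipsilaterally (median 1718), higher in 7 of 8 mice by 0.53 ± 0.16 on the log2 scale (SE), with an exact sign-flip p of 0.0156. Irs2, an adaptor of the insulin receptor, was at 18.1 to 81.6 CPM contralaterally (median 37.6) and 50.9 to 298 CPM ipsilaterally (median 88.9), 1.31 ± 0.46 (SE) on the log2 scale. Snhg11, a small nucleolar RNA host gene, was at 26.5 to 116 CPM contralaterally (median 55.6) and 55.2 to 258 CPM ipsilaterally (median 171), 1.29 ± 0.44 (SE). Both were higher in 7 of 8 mice. Stxbp2, a syntaxin-binding protein, was at 0.295 to 21.5 CPM contralaterally (median 6.09) and 14.2 to 130 CPM ipsilaterally (median 19.8). Without a8_11 and a8_14, Itm2c and Snhg11 met the criteria, while Irs2 (0.89 ± 0.39) and Stxbp2 (2.98 ± 1.47) did not.

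Others were near the limit of detection on the contralateral side. Irak4, the kinase next to the interleukin 1 and Toll-like receptors, was higher in 8 of 8 mice, but it was above 3 counts in 3 of 8 contralateral libraries, and its ipsilateral level ran from 0.0426 to 177 CPM with a median of 1.73. The 177 CPM belonged to a8_11. Upk3bl, Pcdh20 and the neurofilament gene Nefm were likewise above 3 counts in 3, 4 and 5 of 8 contralateral libraries and in 7 of 8 ipsilateral ones each. Over the 6 mice without a8_11 and a8_14, Upk3bl met the criteria and Irak4, Pcdh20 and Nefm did not. Irak4 was at 4.81 on the log2 scale with all 8 mice and at 4.88 ± 1.43 (SE) in those 6, and Nefm at 4.76 and 4.79 ± 2.00. Their unadjusted edgeR p in the 6 mice were 0.0087 and 0.0463, so they missed the TPM minimum alone. Pcdh20 missed the p threshold (edgeR p of 0.0641). The size of a fitted fold change of such genes depends on the few libraries that hold counts.

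Among the genes lower on the injured side, Sept4 did not depend on any 1 mouse for its direction. It encodes a septin, a GTP-binding protein of the cytoskeleton, and lies at chr11:87568903-87590539 (mm10). It was at 157 to 288 CPM contralaterally (median 230) and 78.7 to 187 CPM ipsilaterally (median 126), lower in 8 of 8 mice with differences of -1.46 to -0.30 on the log2 scale. The paired log2 fold change was -0.82 ± 0.23 (SE, n = 8 mice), the exact sign-flip p 0.00781, and without a8_11 and a8_14 the value was -0.71 ± 0.17. Another septin, Sept7, was at 288 to 831 CPM contralaterally (median 444) and 146 to 432 CPM ipsilaterally (median 277), also lower in 8 of 8 mice, at -0.70 ± 0.24 (SE).

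Hsd11b1, the enzyme that regenerates active glucocorticoid inside cells, was lower on the injured side. It ran from 302 to 638 CPM contralaterally (median 452) and from 83.1 to 438 CPM ipsilaterally (median 202). It was lower in 8 of 8 mice, with differences of -2.93 to -0.22 on the log2 scale, the largest in a8_11 and a8_14, and its log2 fold change was -1.16 ± 0.35 (SE, n = 8 mice; exact sign-flip p of 0.00781). Without those mice it was -0.67 ± 0.19 and met the criteria. Retsat, which saturates retinol, and Btbd17 were lower in 8 of 8 mice too, at -0.50 ± 0.17 and -0.60 ± 0.20 (SE). The glycolytic enolase Eno1 went from a median of 2025 CPM to 1592 CPM, lower in 7 of 8 mice, at -0.40 ± 0.11 (SE), and its near-identical copy Eno1b, at -0.43 ± 0.12. The counting can split reads between these copies, so their separate values are uncertain. The same holds for the predicted genes Gm10719 and Gm10721, neighbours at the start of chromosome 9, which were lower in 8 of 8 mice and ranged from 1.51 to 628 and from 2.21 to 295 CPM contralaterally. In the 6 mice other than a8_11 and a8_14 neither met the criteria (-1.75 ± 1.02 and -1.57 ± 1.02).

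The sequences before the start of 4 abundant named genes are shown, 2 from each direction, Vim and Itm2c higher and Hsd11b1 and Glul lower ipsilaterally. Each is the 250 bases upstream of the start annotated by RefSeq (GRCm38.p6), on the gene's strand, at chr2:13574061-13574310 (plus strand), chr1:85894260-85894509 (plus), chr1:193242361-193242610 (minus) and chr1:153899679-153899928 (plus). Capitals mark matches, on both strands, to CCAAT, to TATAAA, to TGANTCA (the AP-1 motif) or to TTCNNNGAA (the STAT motif).
Vim: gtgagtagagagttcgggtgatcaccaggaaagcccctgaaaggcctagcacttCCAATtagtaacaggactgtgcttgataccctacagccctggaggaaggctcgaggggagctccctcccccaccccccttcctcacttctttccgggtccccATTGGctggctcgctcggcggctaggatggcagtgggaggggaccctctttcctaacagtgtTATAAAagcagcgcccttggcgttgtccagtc
Itm2c: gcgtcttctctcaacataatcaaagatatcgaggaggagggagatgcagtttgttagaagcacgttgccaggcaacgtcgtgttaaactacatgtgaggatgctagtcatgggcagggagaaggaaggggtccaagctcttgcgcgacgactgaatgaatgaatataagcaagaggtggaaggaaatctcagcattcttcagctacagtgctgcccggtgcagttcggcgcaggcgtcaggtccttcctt
Hsd11b1: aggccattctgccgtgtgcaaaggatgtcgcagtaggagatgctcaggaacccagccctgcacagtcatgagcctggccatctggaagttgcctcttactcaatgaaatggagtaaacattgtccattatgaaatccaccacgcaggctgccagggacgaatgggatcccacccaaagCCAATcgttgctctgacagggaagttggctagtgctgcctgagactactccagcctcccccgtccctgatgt
Glul: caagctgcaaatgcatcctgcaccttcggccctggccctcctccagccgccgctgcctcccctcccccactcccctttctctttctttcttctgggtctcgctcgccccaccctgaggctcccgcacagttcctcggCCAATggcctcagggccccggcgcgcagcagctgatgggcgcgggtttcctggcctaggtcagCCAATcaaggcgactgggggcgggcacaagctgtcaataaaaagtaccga
Over the 32851 promoters of the same length in that table, CCAAT was held by 33.8%, TATAAA by 12.4%, TGANTCA by 6.75% and TTCNNNGAA by 7.02%. Vim held 2 CCAAT matches and 1 TATAAA match, Glul held 2 CCAAT matches, Hsd11b1 held 1, and Itm2c held no match to any of the motifs. No STAT or AP-1 match stood in these windows, which says nothing about the factors. Of the 52 named genes 39 had an entry under the same symbol.

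Of the 20 astrocyte markers 16 had a fitted log2 fold change below 0, where 55.1% of all genes tested were below 0. The median was -0.18 against -0.09 over all genes tested, the median of the list within a mouse was below 0 in 4 of 8 mice, and 3 met the criteria, all lower (Apoe, Gjb6 and Glul). Apoe, the main lipid carrier of astrocytes, was at 29570 to 75455 CPM contralaterally (median 38239) and 24655 to 39868 CPM ipsilaterally (median 31598), -0.31 ± 0.12 (SE, n = 8 mice). Gjb6, the gap junction protein connexin 30, was at 797 to 1260 CPM contralaterally (median 1018) and 423 to 924 CPM ipsilaterally (median 785), -0.46 ± 0.19 (SE). With a8_11 and a8_14 left out the 3 genes stood at -0.23 ± 0.22, -0.29 ± 0.17 and -0.40 ± 0.20 and none met the criteria. The median of the list was then -0.02, against 0.20 over all genes tested in that fit.

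Genes for the handling of potassium, glutamate and GABA had a similar spread. All 15 genes of the list were tested, 14 were below 0 (55.1% of all genes tested) with a median of -0.29, and 1 met the criteria, Glul, the glutamine synthetase that turns glutamate into glutamine. Glul ran from 1019 to 2395 CPM contralaterally (median 1745) and from 751 to 1964 CPM ipsilaterally (median 1095), lower in 5 of 8 mice, at -0.48 ± 0.21 (SE; exact sign-flip p of 0.0703). The glutamate transporters Slc1a2 and Slc1a3 were at -0.29 ± 0.25 and -0.52 ± 0.28, each lower in 4 mice and higher in 4, and the potassium channel Kcnj10 at -0.67 ± 0.82. Kcnj10 was at 0.527 CPM in the ipsilateral library of a8_11 and at 58.2 to 315 CPM in the other 7. Over the 6 mice without a8_11 and a8_14 the signs of Slc1a2 and Kcnj10 turned, to 0.05 ± 0.21 and 0.10 ± 0.34. The median of the list was then 0.01, against 0.20 over all genes tested in that fit. Aqp4, the water channel of astrocyte endfeet, was at -0.14 ± 0.20 with all mice and 0.09 ± 0.17 without those 2.

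Cst3, the secreted protease inhibitor cystatin C and one of the most abundant transcripts of these cells, was lower ipsilaterally in 7 of 8 mice. It ran from 7362 to 34768 CPM contralaterally (median 9445) and from 6088 to 15312 CPM ipsilaterally (median 8103). Its log2 fold change was -0.36 ± 0.13 (SE, n = 8 mice; exact sign-flip p of 0.0156). The values were -1.25 in a8_11, -0.86 in a9_12 and between -0.30 and 0.09 in the other 6. The ipsilateral libraries of a8_11 and a9_12 also had the lowest astrocyte sums, 68199 and 85433 TPM, and the highest choroid plexus sums, 5139 and 7866 TPM, and the part of these in the result was not tested. In the 6 mice other than a8_11 and a8_14 it was -0.27 ± 0.18 and did not meet the criteria.

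Among the remaining astrocyte lists single genes were called, where 0.85% of all genes tested met the criteria and 55.1% were below 0. Ptn, a growth factor bound to proteoglycans, was the 1 of 11 tested scar matrix genes to meet the criteria, at -0.37 ± 0.15 (SE), lower in 7 of 8 mice. Msmo1 was the 1 of 14 cholesterol synthesis genes, at -0.53 ± 0.21, and 11 of the 14 were below 0 with a median of -0.27. Jun was the 1 of 11 tested immediate early genes, at -0.60 ± 0.24, with a median of -0.54 over the list. Fos was at -0.12 ± 0.46. With a8_11 and a8_14 left out Ptn met the criteria, while Msmo1 (-0.34 ± 0.20) and Jun (-0.63 ± 0.28) did not, and Cyp51 and Ier2 were the calls of their lists. With all 8 mice the cell cycle (10 tested) and neural stem cell (6 tested) lists held 0 calls. Without a8_11 and a8_14 Thbs4 of the neural stem cell list met the criteria.

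Transcripts of other cell types differed between the sides as well, and their part in the results above was not tested. Neuronal markers were mostly higher ipsilaterally, 11 of 13 above 0 with a median log2 fold change of 1.33 (sham median -0.50), and their summed level went from 180 to 325 TPM contralaterally to 244 to 1039 TPM ipsilaterally, higher in 7 of 8 mice. Of all genes tested 55.1% were below 0 and 0.85% met the criteria. In a8_11 the median neuronal gene was at -5.37 although the sum was higher. Nefm and Syp, the gene of the synaptic vesicle protein synaptophysin, met the criteria, Syp at 16.5 to 89.1 CPM contralaterally (median 40.8) and 24.96 to 316 CPM ipsilaterally (median 117). Over the 6 mice without a8_11 and a8_14 the list's median was 1.44, against 0.20 over all genes tested in that fit. Syp was then at 0.88 ± 0.50 and did not meet the criteria, and Eno2 did. Every neuronal marker was above 3 counts in more than 8 of the 16 libraries.

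Red blood cell transcripts were lower on the injured side. Their summed level ran from 1523 to 16536 TPM contralaterally and from 410 to 3254 TPM ipsilaterally, lower ipsilaterally in 7 of 8 mice. Of 4 tested genes 3 met the criteria, against 0.85% of all genes tested. Hbb-bs, an adult beta globin, was at 95.0 to 851 CPM contralaterally (median 238) and 22.4 to 210 CPM ipsilaterally (median 84.7), -1.41 ± 0.49 (SE; exact sign-flip p of 0.0234). Hba-a1 and Hba-a2, near-identical alpha globins that share reads, were both at -1.45 ± 0.60. In the 6 mice other than a8_11 and a8_14 all 4 tested genes met the criteria.

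Microglial and endothelial transcripts varied widely between mice. Microglial markers summed to 27.1 to 1720 TPM contralaterally and 217 to 1351 TPM ipsilaterally, higher ipsilaterally in 3 of 8 mice, with a median log2 fold change of 0.59 over 14 genes and 0 calls. Without a8_11 and a8_14 the microglial median was 1.04, against 0.20 over all genes tested in that fit, and Trem2 met the criteria. Endothelial markers summed to 449 to 2099 and 174 to 2226 TPM, higher ipsilaterally in 2 of 8 mice, with a median of -0.66 over 10 genes and a call in each direction. Cldn5, the tight junction protein claudin 5, was at -1.11 ± 0.50 (SE), and Abcb1a, the efflux pump of the vessel wall, at 3.95 ± 1.60. With a8_11 and a8_14 left out neither met the criteria (-1.004 ± 0.44 and 4.05 ± 2.11), and Flt1 was the call of the list.

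Choroid plexus and ependymal transcripts were high in the ipsilateral libraries of a8_11 and a9_12. Choroid plexus markers summed to 5139 TPM in a8_11 and 7866 TPM in a9_12, against 232 and 41.3 TPM on their contralateral sides. In the other 6 mice they summed to 22.4 to 74.4 TPM ipsilaterally and 2.45 to 382 TPM contralaterally. Ependymal markers summed to 6577 TPM ipsilaterally and 566 TPM contralaterally in a8_11, and to 3889 and 1147 TPM in a9_12. In the other 6 mice they summed to 729 to 1604 TPM ipsilaterally and 521 to 3170 TPM contralaterally. The highest of these contralateral sums were those of a9_15 (3170 TPM) and a9_13 (2706 TPM). Ependymal, mural, oligodendrocyte, precursor, granule cell and choroid plexus lists held 0 calls, 7 of the 8 macrophage markers were above 3 counts in at most 8 libraries, and no T cell marker was tested. Without a8_11 and a8_14 Neu4 of the precursor list met the criteria, lower ipsilaterally.

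**Figure D3:**
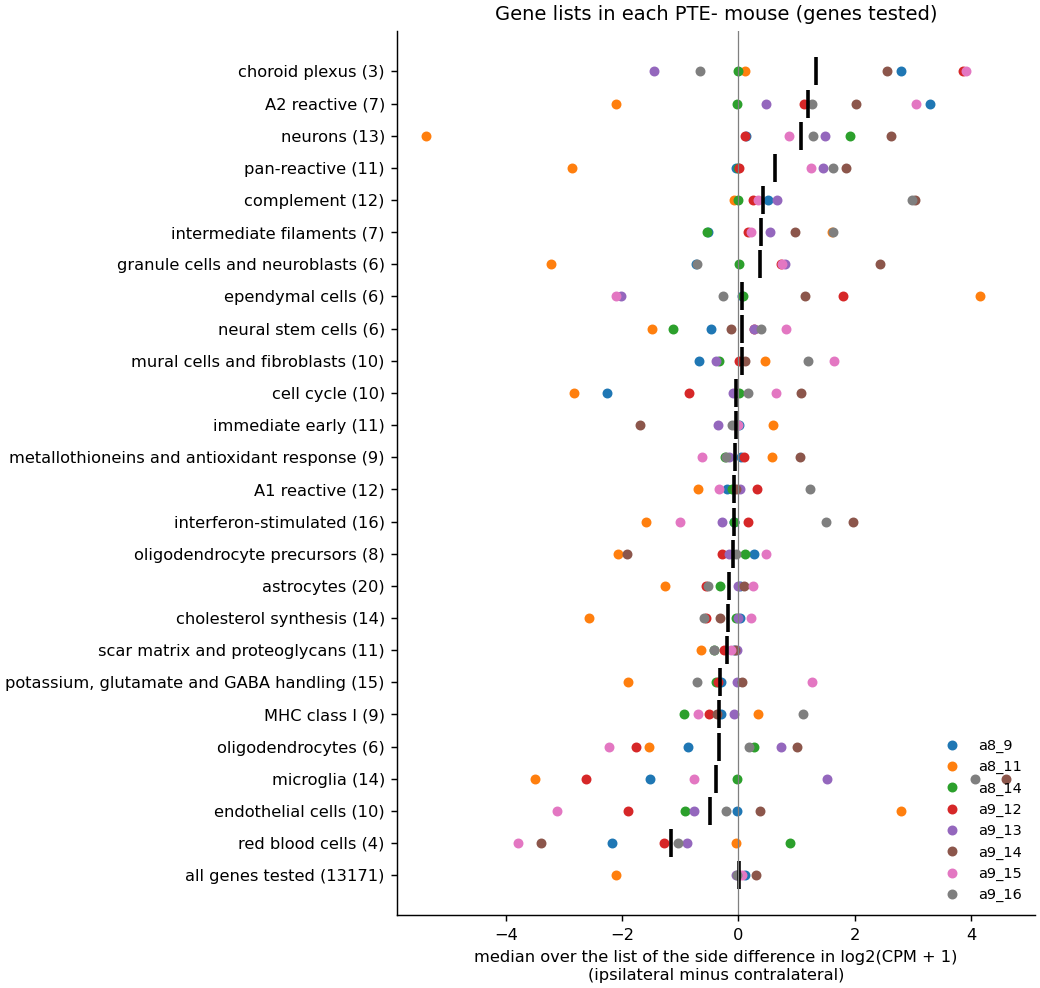
Each point is the median, over the tested genes of a list (number in brackets), of the side difference in log2(CPM + 1) within 1 of the 8 PTE- mice, coloured by mouse, and the black bar is the median of the mice. Neuronal and A2 lists lie to the right of 0 in most mice and red blood cells to the left, while a8_11 lies at -2.11 for all genes tested and far to the left for several lists.

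**Figure D4:**
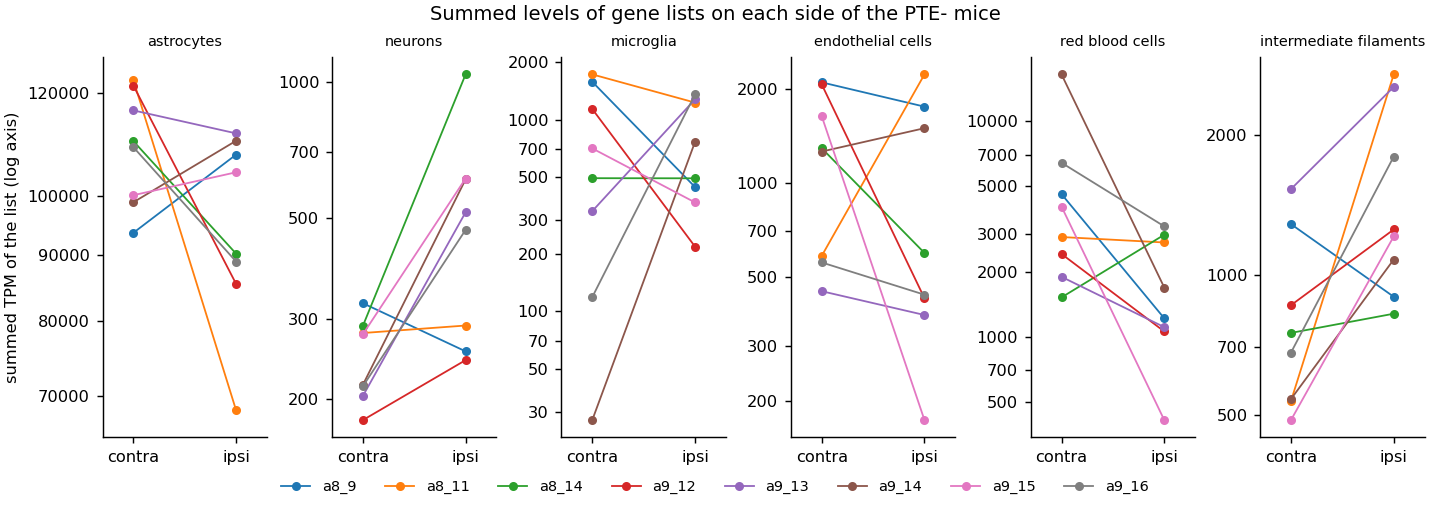
Lines join the summed TPM (log y axis) of 6 gene lists on both sides of each PTE- mouse. Neuronal and intermediate filament sums go up in 7 of 8 mice and red blood cell sums go down in 7 of 8, while microglial and endothelial sums cross.

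The sham mice show what the sides differ by without an impact. In the same paired fit of their 10 libraries 13711 genes were tested, 0 had an adjusted p under 0.05, 97 had an unadjusted p under 0.05, and 81 met the criteria (0.591%), 65 higher and 16 lower ipsilaterally. The number of calls was thus of the same order as in PTE- mice. Of the 112 genes called in PTE- mice 3 were also called in sham mice. Of the 62 higher ones 59 were tested in sham mice and 31 were above 0 there, and of the 50 lower ones 50 were tested and 16 were below 0, with sham medians of 0.02 and 0.07.

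The difference of the side effects was tested directly, as an interaction over the 26 libraries of PTE- and sham mice. Of 15133 genes 0 had an adjusted p under 0.05 in edgeR, with a smallest adjusted p of 1, and 126 had an unadjusted p under 0.05, 0.833% of those tested. For genes already picked for their side difference in PTE- mice this test is not independent, and their values are a description. Sept4 was lower ipsilaterally in 8 of 8 PTE- mice and higher in 5 of 5 sham mice, where it differed by 0.10 to 0.81 on the log2 scale. The difference between the groups was -1.23 ± 0.31 (SE), with an exact permutation p of 0.000777, the smallest that 1287 assignments of 13 mice can give. Eno1 was at -0.40 ± 0.11 in PTE- and 0.27 ± 0.13 in sham mice (higher in 4 of 5), and Apoe at -0.31 ± 0.12 and 0.23 ± 0.13. Hbb-bs was at -1.41 ± 0.49 and 0.87 ± 0.27, a difference of -2.31 ± 0.67 (SE; exact permutation p of 0.00777). Vim was at 1.28 ± 0.43 in PTE- and -0.23 ± 0.33 in sham mice, a difference of 1.49 ± 0.63 (SE; exact permutation p of 0.0451), and C4b at 1.10 ± 0.34 and 0.15 ± 0.27, a difference of 0.93 ± 0.51 (exact permutation p of 0.0761). For Gfap, Serping1 and Cst3 the differences between the groups were 0.49 ± 0.49, 0.65 ± 0.74 and -0.30 ± 0.20 (SE), with exact permutation p of 0.382, 0.382 and 0.201.

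**Figure D5:**
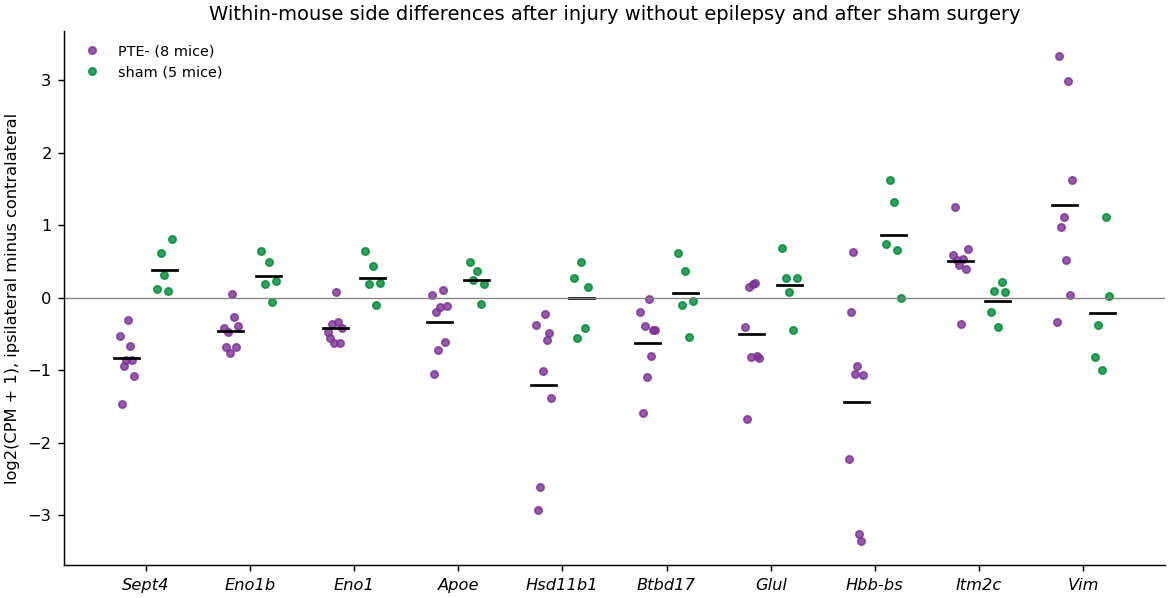
Points are within-mouse differences in log2(CPM + 1), ipsilateral minus contralateral, of 10 named genes in 8 PTE- mice (purple) and 5 sham mice (green), and bars are means. Sept4 lies below 0 in all PTE- mice and above 0 in all sham mice, and the other genes overlap between the groups.

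Mice that became epileptic offer the other contrast, with 4 mice that have both sides. Their side difference was tested against that of the PTE- mice over 24 libraries and 15299 genes, and 0 genes had an adjusted p under 0.05 in edgeR, while 144 had an unadjusted p under 0.05. Side by side, C4b was at 1.10 ± 0.34 in PTE- and 0.71 ± 0.27 in PTE+ mice, Sept4 at -0.82 ± 0.23 and -0.65 ± 0.30, Hsd11b1 at -1.16 ± 0.35 and -0.63 ± 0.21, and Snhg11 at 1.29 ± 0.44 and 1.33 ± 0.21 (SE, log2 scale). Vim was at 1.28 ± 0.43 and 0.09 ± 0.14, Gfap at 0.60 ± 0.35 and -0.22 ± 0.31, Glul at -0.48 ± 0.21 and -0.26 ± 0.13, and Gjb6 at -0.46 ± 0.19 and 0.42 ± 0.16. Retsat and Ptn were lower ipsilaterally in 8 and 7 of the 8 PTE- mice and higher in 3 and 4 of the 4 PTE+ mice. These genes were picked on the PTE- values, and over all genes no such difference passed the adjustment.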

How the data were processed

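Hippocampal astrocytes were bead-sorted, their RNA was amplified with the SMART-Seq V4 kit, which carries no molecular identifiers, and paired reads were sequenced. The authors trimmed reads with Trim Galore 0.6.4 and quantified genes with RSEM 1.2.28 over Bowtie2 2.4.1 on mm10, and their processing notes name DESeq2 1.36.0. The deposited tables hold RSEM expected counts and TPM per gene, which the authors computed per library without pooling. Of 21975 gene identifiers 21933 matched GENCODE M21. The expected counts were whole numbers as deposited.

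Counts of the 16 libraries were tested with edgeR 4.0.16 in R 4.3.3 (quasi-likelihood F test, mouse and side as terms, TMM scaling, filterByExpr by side, Benjamini-Hochberg adjustment). The study's own criteria ask for a mean TPM over 5 on either side, a fold of 1.2 or more, and p under 0.05 before adjustment. Single genes were described by log2(CPM + 1), scaled by TMM over the 34 libraries of mice with both sides, with exact two-sided sign-flip tests over mice, and exact permutation of labels between PTE- and sham mice. A level of at most 3 counts was taken as the floor. The scripts were checked on simulated data. Alternatives used limma 3.58.1 and DESeq2 1.42.0. The mice were paired because both libraries come from the same animal. Their deviations from the side means correlated by -0.03 to 0.17 within a mouse (median 0.06), against a median of -0.01 between mice. No library was a copy of another. The floor covers counting error only, standard errors are those of the fit over mice, and nothing shows whether pairs of libraries were prepared together.

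Named genes were a list of key genes, the 10 lowest p-values in each direction among genes meeting the criteria with the same sign in at least 7 of 8 mice, and up to 4 members per gene list that met them. Genes chosen otherwise are said to be. The mice, the gene lists and the tests were chosen with earlier results of these data known. The other 3 libraries, of mice with 1 side, entered no test and served only in choosing the 6953 abundant genes.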

Additional observations from a re-analysis of the deposited data

Results flagged for a closer look

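The within-mouse differences of the named genes in PTE- mice, in log2(CPM + 1), and the depth of their libraries were examined for a sample far from the others in 56 groups, and 3 groups held one by Dixon's criterion. Chance flags about 1 group in 20, which is about as many. Kcnj10 was at -6.639 in a8_11 and between -2.14 and 1.66 in the other 7 mice, and the a8_11 value rests on 21 counts on the ipsilateral side. Irak4 was at 6.446 in a8_11 and at most 2.32 in the others. Eno1 was at 0.07832 in a9_13 and between -0.62 and -0.34 in the others. Sept4 moved in opposite directions in PTE- and sham mice. Its mean difference was -0.835 in the 8 PTE- mice, all lower, and 0.3899 in the 5 sham mice, all higher, and the difference between the groups had an exact permutation p of 0.000777. Sept4 was named for its PTE- values, and it was the 1 of 52 named genes with such opposite signs. Full separation of the groups fixes this p at its smallest value, so it is a description and no independent test.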

How the results depend on the processing

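All 16 libraries hold at least 32526127 counts, and 37.6% of the genes tested were above 3 counts in all of them. The count of genes meeting the criteria, 112, depended on the processing strongly. It was 748 in DESeq2, 478 with voom weights, 473 with limma on log2(TPM + 1), 231 with the spread shared over 34 libraries, 276 with the number of genes detected as a covariate, 54 in the mice prefixed a8 alone, 243 in those prefixed a9 alone and 207 without a8_11 and a8_14 (chosen after seeing the data). Leaving out 1 mouse gave 60 to 202, the 60 without a9_16 and the 202 without a8_11, and in sham mice, where the count was 81, 49 (without a9_11) to 109. Without the pairing by mouse it was 154, of which 71 were among the 112. The count at an adjusted p under 0.05 was 0 under the alternatives run except in DESeq2, with 130. The share of calls higher ipsilaterally, 55.4%, was 42.4% with the shared spread, 31.9% with the detected genes as a covariate, and 35 to 69.9% with 1 mouse left out. The causes were not tested.

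Of the named genes, those whose sign turned under an alternative had not met the criteria. Gja1 (-0.04) was at 0.0180 with RLE size factors and in DESeq2, 0.0571 with limma on TPM and in TPM within mice, 0.0308 in the a8 mice, and -0.17 to 0.0870 with 1 mouse left out. Aqp4 (-0.14) was at 0.0923 with voom, 0.19 in the a9 mice, 0.0885 without a8_11 and a8_14, and -0.25 to 0.0046 with 1 mouse left out. Slc1a2 (-0.29) was at 0.0368 with limma on TPM and in TPM within mice, 0.0141 in the a9 mice and 0.0477 without a8_11 and a8_14. Atp1b2 (-0.08) was at 0.0306 with limma on TPM and in TPM within mice and -0.25 to 0.0693 with 1 mouse left out. Kcnj10 (-0.67) was at 0.27 in the a9 mice and 0.10 without a8_11 and a8_14. In the a8 mice Gfap was at -0.44, Serpina3n at -0.92 and Cd44 at -8.90.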
